A study of Homo sapiens with 10 samples.

Results

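Glucose uptake, glycolysis, lactate handling and the response to low oxygen were followed here through 39 named genes of the deposited RPKM table, which lists 62656 human genes. The genes were chosen by name for these roles, with earlier results of these data known. They were read in PC3 cells, a human prostate cancer line derived from a bone metastasis, which were starved overnight and then kept for 24 h in RPMI-1640 with L-glutamine. In the control group the medium held DMSO, the solvent, and in the other group it held 1 µM GW3965, a synthetic agonist of the liver X receptors (LXRs). Each group had 5 libraries, DMSO 1 to 5 and GW3965 1 to 5. These libraries cover 1 cell line, 1 dose and 1 time, and nothing in the labels says whether the 5 libraries of a group came from separate cultures, so that the p-values measure the spread between these libraries, which may be technical. Values are RPKM, read counts scaled for gene length and for a library factor that follows the typical gene and not the read total. They can be compared between genes of different length, less surely where a gene shares exon bases or reads with other genes.

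Glycolysis splits glucose into pyruvate in the cytosol, and many tumour cells turn much of that pyruvate into lactate and export it even when oxygen is present. Glucose enters through SLC2A transporters, is trapped by hexokinases, passes the regulated phosphofructokinase step and leaves as pyruvate through pyruvate kinase. The hypoxia-inducible factors (HIFs) couple this route to oxygen. Their alpha subunits are marked for destruction by the EGLN prolyl hydroxylases when oxygen is present and, when it is scarce, pair with ARNT and activate glucose transporters, nearly all glycolytic steps, mitophagy receptors and angiogenic factors. LXRs are nuclear receptors for oxysterols, best known for switching on cholesterol efflux and fatty acid synthesis.

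Reads recovered from the RPKM values ranged from 30610451 to 39384599 per library in DMSO (median 34381976) and from 30429800 to 41636749 in GW3965 (median 36255347). Established LXR targets were higher in every GW3965 library. ABCA1, a cholesterol efflux pump, lay between 2.50 and 5.75 RPKM in DMSO and between 14.1 and 19.5 RPKM in GW3965, a log2 fold change of 2.29, computed like all those here as GW3965 minus DMSO on log2(RPKM + 0.1) (adjusted p = 0.00063, limma with Benjamini-Hochberg adjustment over all tested genes). ABCG1, its partner in efflux, rose by 2.13 on the log2 scale (adjusted p = 0.000124). The keratins KRT8 and KRT18 of epithelial cells averaged 36.6 and 49.6 RPKM, the prostate secretory genes KLK3 and KLK2 had 0 reads and 0 to 4 reads per library, and none of the 5 leukocyte markers was high enough to be tested. The libraries were not alike within groups. On the first principal component of 14314 well-covered genes, which held 41.5% of the variance, DMSO 1 (-17.8), GW3965 1 (-19.6) and GW3965 2 (-17.7) stood at one end, while the other 7 libraries lay between -3.88 and 21.8, with DMSO 4 at the far end.

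Against DMSO, the transcripts of glycolysis and of the hypoxia response in GW3965 had log2 fold changes between -0.25 and 0.39, and 0 of the 35 members that could be tested passed the threshold of adjusted p under 0.05 (limma, lowest adjusted p 0.204). Over all 20402 tested genes, those with a mean of at least 0.5 RPKM, 32 passed, which is 0.157%. The estimates were mostly on one side. The log2 fold change was below 0 for 29 of the 35 members, 82.9%, beside 48.9% of all tested genes, and its median was -0.10 beside 0.00 for all genes. The 24 tested genes of glycolysis and lactate gave 21 below 0 and a median of -0.13. This median was -0.08 without DMSO 4 and -0.07 with library weights, but -0.19 without DMSO 1 and -0.17 with quantile normalization. At an unadjusted limma p under 0.05, 7 members were lower (2.36% of all tested genes) and 2 were higher (4.64% of all tested genes). Every one of the 35 intervals at 95% lay within 1 log2 unit of 0, and 33 lay within 0.5, the exceptions being ENO3 and ADM. In bulk libraries a lower level in all cells and a lower share of cells that express a gene cannot be told apart.

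**Figure D1:**
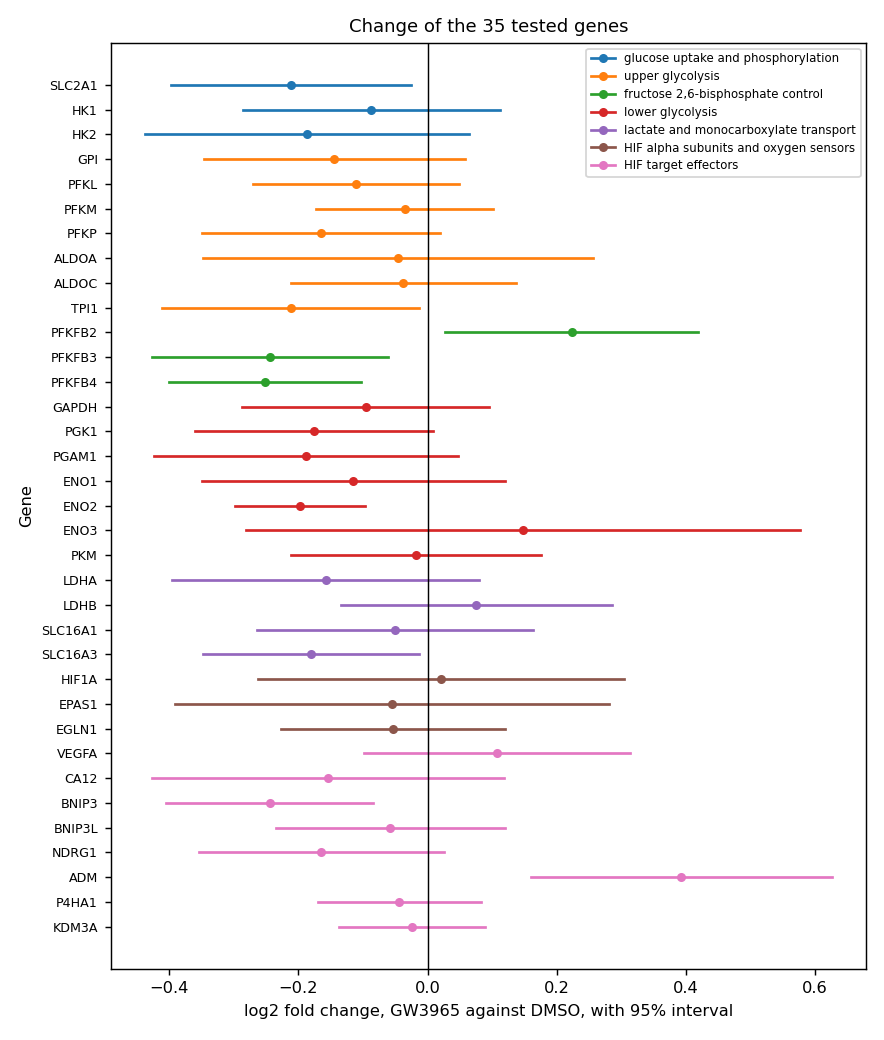
Log2 fold change of GW3965 against DMSO for each of the 35 tested members, with its 95% limma interval, grouped by role, n = 5 libraries per group. Points run from -0.25 for PFKFB4 to 0.39 for ADM, and 29 of 35 lie left of 0.

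How strongly PC3 cells express the route differed widely between its genes. GAPDH was the most abundant member at 442 RPKM over all 10 libraries, followed by ENO1 at 294, LDHA at 289, PKM at 243, PGAM1 at 157, PGK1 at 146 and TPI1 at 140. In this order ENO1 and LDHA differed by less than their spread between libraries, as did PGAM1 and PGK1, and PGK1 and TPI1. HIF1A at 69.9 RPKM and P4HA1 at 59.3 RPKM were the most abundant members of the hypoxia arm. At the other end SLC2A3 had 4 to 15 reads per library, CA9 1 to 19, EGLN3 0 to 4 and ANKRD37 24 to 61, and these 4 members were too low to be tested. SLC2A3 is the high-affinity neuronal glucose transporter, CA9 a surface carbonic anhydrase widely used as a mark of hypoxic tumour, and EGLN3 a HIF-inducible oxygen sensor.

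**Figure D2:**
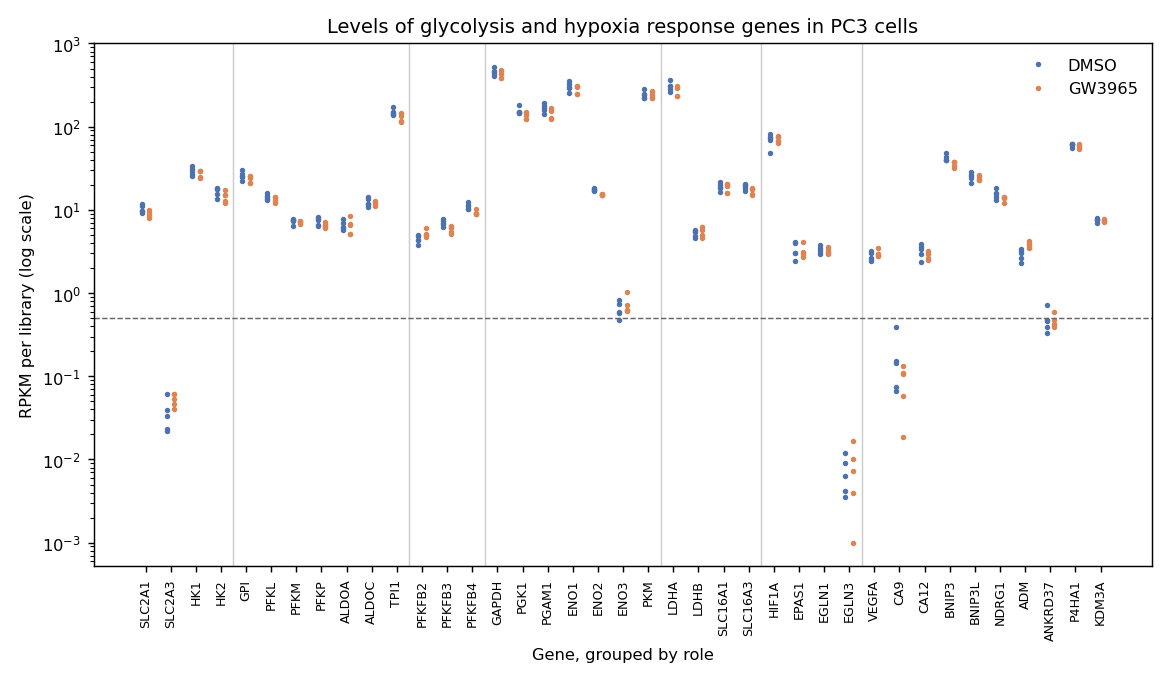
Level of each of the 39 members in each of the 10 libraries on a log10 axis of RPKM, grouped by role, with DMSO and GW3965 in different colours. TPI1, GAPDH, PGK1, PGAM1, ENO1, PKM and LDHA lie above 100 RPKM, the 4 untested members have means under the dashed line at 0.5 RPKM, and the 0 of EGLN3 in GW3965 4 is drawn at 0.001.

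At the entry of glucose, all 3 tested members had estimates below 0. SLC2A1, the main glucose transporter of proliferating cells and 99.6% of the summed SLC2A1 and SLC2A3 level in DMSO, read 9.13, 9.74, 11.1, 11.7 and 9.75 RPKM in DMSO 1 to 5. In GW3965 1 to 5 it read 7.92, 8.35, 8.85, 9.38 and 9.84 RPKM. The GW3965 values were lower on average but the groups overlapped, since GW3965 5 lay above 3 of the DMSO libraries. The log2 fold change was -0.21 with a 95% interval from -0.40 to -0.02 (adjusted p = 0.614, limma). The 99.6% leaves out SLC2A genes that are not members, among them SLC2A10, SLC2A6 and SLC2A8. These averaged 6.52, 4.09 and 3.20 RPKM in DMSO. Both hexokinases were present. HK1, the ubiquitous form bound to mitochondria, read 25.8, 29.1, 31.3, 33.3 and 26.8 RPKM in DMSO and 25.0, 24.0, 29.5, 29.7 and 29.6 RPKM in GW3965, with wide overlap (log2 fold change -0.09). HK2, the inducible form, averaged 16.6 ± 2.11 RPKM in DMSO and 14.6 ± 2.06 in GW3965 (SD, n = 5 each). HK1 made up 63.9% ± 1.38 of their summed level in DMSO and 65.5% ± 1.36 in GW3965.

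Upper glycolysis, from glucose 6-phosphate to the triose phosphates, gave 7 of 7 estimates below 0, from -0.21 for TPI1 to -0.04 for PFKM. TPI1, which interconverts the triose phosphates, was its most abundant gene. It read 137, 142, 151, 174 and 148 RPKM in DMSO and 114, 116, 144, 145 and 133 RPKM in GW3965. GW3965 1, 2 and 5 lay below every DMSO library, while GW3965 3 and 4 lay above DMSO 1 and 2. The difference was -0.21 on the log2 scale (95% interval -0.41 to -0.01, adjusted p = 0.677, limma). GPI, the isomerase that follows the hexokinases, averaged 26.1 RPKM in DMSO and 23.6 in GW3965. The phosphofructokinase step was shared between PFKL at 49.5%, PFKM at 25.2% and PFKP at 25.2% of their summed DMSO level, and all 3 shares overlapped between groups. PFKP, the platelet form, had the lowest of their log2 fold changes at -0.16, followed by PFKL at -0.11. The aldolases ALDOA and ALDOC gave -0.05 and -0.04, and the ALDOA level is uncertain because 42.3% of its exon bases in GENCODE 29 lie also in AC093512.2 on the same strand.

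The genes that set fructose 2,6-bisphosphate, the strongest activator of phosphofructokinase, stood on both sides of their control level. The bifunctional enzymes PFKFB2, PFKFB3 and PFKFB4 make and break this metabolite, PFKFB3 with a strong bias to making it. All 3 reached an unadjusted p under 0.05, PFKFB2 upwards and the others downwards. PFKFB4 read 10.3, 11.1, 12.3, 11.4 and 10.2 RPKM in DMSO and 8.98, 9.24, 8.87, 8.96 and 10.3 RPKM in GW3965. Its 4 lowest GW3965 libraries lay below all DMSO libraries, and GW3965 5 lay among them. The log2 fold change of -0.25 was the lowest of the 35 members (SE 0.07, 95% interval -0.40 to -0.10, adjusted p = 0.290, limma), and an exact two-sided permutation test of the group labels gave p = 0.0159.

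PFKFB3 read 6.16, 6.70, 7.44, 7.76 and 6.92 RPKM in DMSO and 5.45, 5.18, 6.25, 6.49 and 6.11 RPKM in GW3965. Its groups met only at their edges, with DMSO 1 below GW3965 3 and 4 (log2 fold change -0.24, adjusted p = 0.521, limma). PFKFB2 read 4.30, 4.97, 4.81, 4.34 and 3.76 RPKM in DMSO. In GW3965 it read 5.16, 4.96, 4.78, 4.98 and 6.07 RPKM, a log2 fold change of 0.22 (adjusted p = 0.610, limma) with groups that overlapped. As a share of the summed level of the 3 genes, PFKFB2 was 18.0 to 21.8% in DMSO and 24.0 to 27.0% in GW3965, and PFKFB4 was 48.6 to 50.1% in DMSO and 43.9 to 47.7% in GW3965. Neither of these shares overlapped between the groups, whereas that of PFKFB3 did. The shares are a description and carry no test. The 3 shares are parts of the same sum and do not vary independently. Among the member families, shares without overlap were found only here and for the lactate dehydrogenases. How often shares in other gene families separate the groups was not examined.

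In lower glycolysis, which yields ATP and pyruvate, 6 of 7 estimates were below 0. GAPDH, the dehydrogenase often used as a reference gene, read 403, 436, 469, 518 and 457 RPKM in DMSO and 387, 386, 461, 477 and 427 RPKM in GW3965. The groups overlapped broadly and the log2 fold change was -0.10 (95% interval -0.29 to 0.10, adjusted p = 0.907, limma). PGK1, PGAM1 and ENO1 gave -0.18, -0.19 and -0.12 with adjusted p of 0.730, 0.804 and 0.910. PKM, which codes for the pyruvate kinase of tumour cells and is summed here over its splice forms, averaged 244 ± 26.5 RPKM in DMSO and 241 ± 22.4 in GW3965, a log2 fold change of -0.02. ENO3, the muscle enolase, was barely present at 0.642 RPKM in DMSO and 0.724 in GW3965.

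ENO2, the enolase first known from neurons and a HIF target, was the member with the smallest spread and the clearest separation. It read 17.18, 17.41, 18.45, 18.06 and 16.90 RPKM in DMSO and 15.66, 15.01, 15.05, 15.67 and 15.25 RPKM in GW3965. Every GW3965 library lay below every DMSO library. Only 0.49% of all tested genes had groups that did not overlap in this direction. The difference was -0.20 on the log2 scale (SE 0.05, 95% interval -0.30 to -0.10), which is 12.8% lower, with adjusted p = 0.204 by limma. The exact two-sided permutation test gave p = 0.00794, the smallest that 5 against 5 can give. Any gene whose groups do not overlap gets this permutation p. It restates the separation and is not adjusted for the number of genes tested. The coefficient of variation of ENO2 in GW3965, 2.08%, was the lowest among the members, whose medians were 10.7% in DMSO and 9.30% in GW3965. ENO2 is a minor part of the enolase step, at 5.48% of the summed enolase level in DMSO and 5.20% in GW3965.

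Lactate genes gave 3 of 4 estimates below 0. LDHA, which reduces pyruvate to lactate, read 263, 304, 310, 363 and 284 RPKM in DMSO and 237, 232, 297, 306 and 296 RPKM in GW3965. The groups overlapped, with DMSO 4 highest and GW3965 1 and 2 lowest (log2 fold change -0.16, 95% interval -0.40 to 0.08, adjusted p = 0.849, limma). LDHB, whose product favours the reverse reaction, was low in these cells at 5.23 RPKM in DMSO and 5.54 in GW3965, and its share of the LDHA and LDHB sum was 1.46 to 1.80% in DMSO and 1.88 to 2.09% in GW3965, with no overlap. That share, too, carries no test and was not set beside shares in other gene families. Of the LDHB exon bases, 33.4% are shared with AC010197.2 on the same strand, so the LDHB level is uncertain. SLC16A3, the lactate exporter of glycolytic cells, read 16.8, 19.4, 20.7, 20.2 and 18.4 RPKM in DMSO and 15.4, 15.2, 17.7, 17.6 and 18.2 RPKM in GW3965. Only DMSO 1 lay within the range of the GW3965 values (log2 fold change -0.18, 95% interval -0.35 to -0.01, adjusted p = 0.668, limma). SLC16A1, the other monocarboxylate transporter, gave -0.05.

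In the hypoxia arm the regulators stood close to their control level. HIF1A, the oxygen-regulated alpha subunit, read 82.4, 74.1, 68.4, 48.5 and 75.5 RPKM in DMSO and 77.1, 75.4, 67.4, 63.2 and 66.6 RPKM in GW3965. The GW3965 range lay within the DMSO range, and the lowest value was that of DMSO 4, the library in which 14 of the 24 glycolysis and lactate genes were highest. This gave a log2 fold change of 0.02 with an interval from -0.26 to 0.30 (adjusted p = 0.989, limma). HIF1A made up 95.3% of the summed HIF alpha level in DMSO, the rest being EPAS1, which codes for HIF-2 alpha, at 3.33 RPKM in DMSO and 3.18 in GW3965. EGLN1, the main oxygen sensor, gave -0.05. The files measure transcripts, and HIF alpha is controlled mostly as protein.

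Among the effectors of HIF, 6 of the 8 tested were below 0, with a median of -0.05, and the 2 members with the clearest separation stood in opposite directions. BNIP3, a mitophagy receptor, read 40.0, 39.4, 43.6, 48.4 and 40.3 RPKM in DMSO and 32.2, 33.9, 37.3, 37.6 and 37.5 RPKM in GW3965. All GW3965 libraries lay below all DMSO libraries. The log2 fold change was -0.24 (SE 0.07, 95% interval -0.40 to -0.08), with adjusted p = 0.382 by limma. The exact two-sided permutation test gave p = 0.00794, which again only restates the separation. BNIP3L, a relative of BNIP3, gave -0.06.

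ADM, which codes for the vasodilator peptide adrenomedullin, was the member with the highest log2 fold change. It read 2.30, 3.42, 3.05, 3.19 and 2.61 RPKM in DMSO and 3.57, 3.48, 4.20, 3.92 and 3.995 RPKM in GW3965. The lowest GW3965 library still exceeded the highest DMSO library, a separation that held for 1.35% of all tested genes in this direction, though DMSO 2 and GW3965 2 nearly met. The log2 fold change was 0.39 (SE 0.11, 95% interval 0.16 to 0.63), 31.3% higher, with adjusted p = 0.299 by limma. The exact two-sided permutation test gave p = 0.00794, which here too only restates the separation. The estimate rests on 185 to 370 reads per library, the lowest coverage of the 3 members with separate groups.

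The other effectors gave small estimates. P4HA1, a collagen prolyl hydroxylase and the most abundant of them, read 62.2, 61.8, 55.4, 61.5 and 60.2 RPKM in DMSO and 55.4, 54.5, 60.8, 58.8 and 62.6 RPKM in GW3965. Its groups overlapped over nearly their whole range (log2 fold change -0.04). VEGFA, the main angiogenic factor, averaged 2.77 ± 0.335 RPKM in DMSO and 2.98 ± 0.285 in GW3965 (log2 fold change 0.11, adjusted p = 0.898, limma). NDRG1, a stress-responsive gene, gave -0.16, CA12, a membrane carbonic anhydrase, -0.15, and KDM3A, a histone demethylase, -0.02. ANKRD37, below the filter, averaged 0.474 RPKM in DMSO and 0.459 in GW3965.

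**Figure D3:**
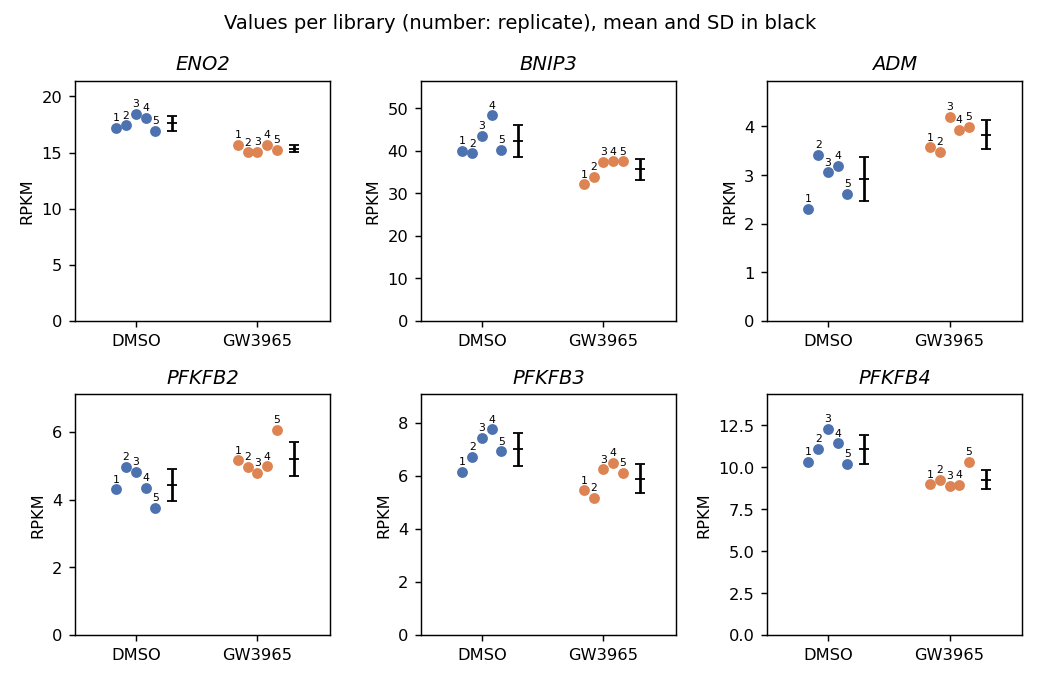
RPKM of ENO2, BNIP3, ADM, PFKFB2, PFKFB3 and PFKFB4 in each library, 1 panel per gene with a linear axis from 0, points numbered by replicate, and the mean with its SD in black beside each group, n = 5 per group. ENO2, BNIP3 and ADM have groups that do not overlap, with GW3965 lower in ENO2 and BNIP3 and higher in ADM.

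Promoters of these genes are shown for the 3 members with separate groups, for PFKFB4 as the lowest estimate and for LDHA as the textbook HIF target among the abundant genes. The core that HIF binds reads ACGTG or GCGTG. Each line gives the 250 bases before the first start that RefSeq lists, on GRCh38.p14, read 5′ to 3′ on the gene's strand, with ACGTG and GCGTG on either strand in capitals (the other strand reads CACGT and CACGC). ENO2 (ENSG00000111674) lies at chr12:6913745-6923698, PFKFB4 (ENSG00000114268) at chr3:48517684-48562015, BNIP3 (ENSG00000176171) at chr10:131966455-131982013 and ADM (ENSG00000148926) at chr11:10304680-10307397 in GENCODE 29. The windows are chr12:6914330-6914579 (+) for ENO2, chr3:48556804-48557053 (-) for PFKFB4, chr10:131981924-131982173 (-) for BNIP3, chr11:10304823-10305072 (+) for ADM and chr11:18394313-18394562 (+) for LDHA.
ENO2: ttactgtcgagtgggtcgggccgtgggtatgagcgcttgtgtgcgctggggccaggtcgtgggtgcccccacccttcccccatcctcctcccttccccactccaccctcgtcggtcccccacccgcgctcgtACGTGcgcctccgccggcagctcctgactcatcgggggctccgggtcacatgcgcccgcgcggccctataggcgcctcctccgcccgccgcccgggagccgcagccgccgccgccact
PFKFB4: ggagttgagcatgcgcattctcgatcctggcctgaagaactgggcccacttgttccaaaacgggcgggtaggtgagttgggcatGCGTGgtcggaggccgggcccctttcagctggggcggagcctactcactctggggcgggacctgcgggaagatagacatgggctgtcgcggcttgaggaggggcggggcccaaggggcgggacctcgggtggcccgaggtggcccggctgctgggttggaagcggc
BNIP3: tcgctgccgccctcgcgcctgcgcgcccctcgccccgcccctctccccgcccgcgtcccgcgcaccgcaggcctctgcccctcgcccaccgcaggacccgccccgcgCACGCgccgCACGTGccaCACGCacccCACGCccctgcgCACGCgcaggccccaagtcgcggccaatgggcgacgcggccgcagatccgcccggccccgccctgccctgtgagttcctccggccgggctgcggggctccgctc
ADM: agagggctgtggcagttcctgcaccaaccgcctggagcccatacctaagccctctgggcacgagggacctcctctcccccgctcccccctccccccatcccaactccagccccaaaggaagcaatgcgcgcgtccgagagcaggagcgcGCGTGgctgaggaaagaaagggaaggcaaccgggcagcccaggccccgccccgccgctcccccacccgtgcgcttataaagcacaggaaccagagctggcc
LDHA: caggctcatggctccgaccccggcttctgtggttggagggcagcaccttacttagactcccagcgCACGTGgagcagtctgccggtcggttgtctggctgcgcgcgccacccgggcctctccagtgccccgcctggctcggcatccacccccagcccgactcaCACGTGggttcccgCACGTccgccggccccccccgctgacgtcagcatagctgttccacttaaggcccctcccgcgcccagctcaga

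ENO2 holds 1 ACGTG, PFKFB4 and ADM 1 GCGTG each, BNIP3 1 ACGTG within a palindromic CACGTG and 4 GCGTG, and LDHA 3 ACGTG, 2 of them within CACGTG. The member that stood higher and those that stood lower thus both carried a core. RefSeq windows were matched for 33 of the 39 members, without SLC2A3, BNIP3L, SLC16A1, NDRG1, VEGFA and PFKFB2. ACGTG occurred on either strand in 13 of the 33 (39.4%) and in 18.7% of the first windows of all 27305 genes. ACGTG or GCGTG occurred in 23 of 33 (69.7%) and in 43.1% of all genes, and CACGTG, the sequence also known as an E-box, in 5 (15.2%) and 6.49%. The member windows had a median GC content of 69.6% against 58.0% for all genes, and the part of GC content in the motif shares was not tested. A match is a run of letters and shows no binding.

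The uneven libraries described above also differed in their glycolysis values. Whether this accounts for the lower values in GW3965 was not tested. The mean log2 deviation of the 24 glycolysis and lactate genes from their mean over the 10 libraries was -0.09, 0.05, 0.12, 0.20 and -0.02 in DMSO 1 to 5. In GW3965 1 to 5 it was -0.18, -0.18, 0.00, 0.04 and 0.05. The 3 lowest libraries were GW3965 1, GW3965 2 and DMSO 1, the same 3 that stood apart on the first component, and 19 of the 24 genes had their lowest value in GW3965 1 or GW3965 2. Without these 3 libraries, which leaves 4 DMSO and 3 GW3965 libraries, 25 of the 35 members were below 0, beside 45.0% of all tested genes, with a median of -0.05 (-0.07 over the 24 glycolysis and lactate genes) and 0 members past the threshold (limma, 0.0882% of all tested genes called). Because the 3 were also the lowest for glycolysis and 2 of them held GW3965, leaving them out by itself draws the glycolysis estimates towards 0. LDHA then gave -0.07 and GAPDH -0.05. TPI1, BNIP3 and PFKFB3 gave -0.13, -0.19 and -0.19, against -0.21, -0.24 and -0.24 with all 10 libraries. ENO2, PFKFB4 and ADM gave -0.21, -0.26 and 0.39, against -0.20, -0.25 and 0.39 with all 10 libraries.

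**Figure D4:**
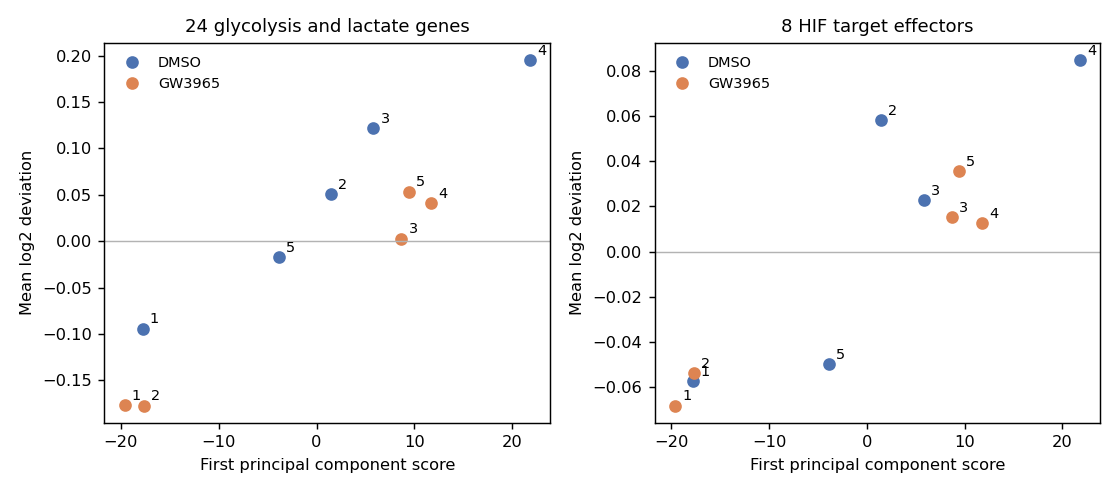
Mean log2 deviation from the mean over the 10 libraries, of the 24 glycolysis and lactate genes (left) and of the 8 tested HIF effectors (right), against the score of the library on the first principal component, 1 point per library, numbered by replicate and coloured by group. In both panels GW3965 1, GW3965 2 and DMSO 1 lie at the low end of both axes and DMSO 4 at the high end of both.

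With the first component as a covariate, in a limma voom fit on the recovered reads, 29 of the 35 members were below 0. The median was -0.08 over the members, -0.10 over the glycolysis and lactate genes and 0.01 over all tested genes. In this fit 6 of the 35 members passed the threshold. In that fit BNIP3 had a log2 fold change of -0.22 (adjusted p = 0.0121), PFKFB3 of -0.22 (0.0280), TPI1 of -0.18 (0.0298), ENO2 of -0.20 (0.0340) and PFKFB4 of -0.25 (0.0453). ADM was the 1 member called higher, at 0.42 (0.0234). It called 0.206% of all tested genes lower and 1.14% higher, against 5 and 1 of the members. Quantile normalization of the libraries, which gives each the same distribution of values, called 1 member, BNIP3, lower (-0.28, adjusted p = 0.0169 by limma), beside 0.0294% of all tested genes. The covariate was computed from these same libraries, so it is no independent record of a batch, and the labels name none.

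The rest of the pathway was read from lists of further genes. Of 39 other genes of glycolysis and gluconeogenesis, 21 were tested, 9 below 0 and 12 above, with 0 past the threshold and a median log2 fold change of 0.02, ranging from -0.09 for LDHAL6B to 0.33 for FBP1, the gluconeogenic fructose bisphosphatase. Of 18 partners and regulators of HIF, 17 were tested and 9 were below 0, with a median of -0.02, ends of -0.12 for P4HTM and 0.17 for CITED2, and 0 past the threshold. Of 45 other HIF target genes, 38 were tested and 29 were below 0, with a median of -0.09, ends of -0.47 for IGFBP3 and 0.17 for RIOX2, and again 0 past the threshold (limma for all 3 lists). Of all tested genes, 48.9% were below 0 and 0.157% passed the threshold. At an unadjusted limma p under 0.05 the counts were 2 of 21, 0 of 17 and 3 of 38, beside 6.99% of all tested genes.

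IGFBP3, a secreted binder of insulin-like growth factors, averaged 4.85 ± 1.30 RPKM in DMSO and 3.40 ± 0.583 in GW3965, with overlapping groups (adjusted p = 0.579, limma). The mean log2 deviation of the 38 other HIF targets was 0.07, 0.02, 0.05, 0.07 and -0.01 in DMSO 1 to 5 and -0.05, -0.05, -0.03, -0.05 and -0.02 in GW3965 1 to 5, so that every GW3965 library lay below every DMSO library. The nearest libraries were DMSO 5 at -0.0106 and GW3965 5 at -0.0166. How often the mean of other lists of genes separates the groups was not examined, and this list was chosen with earlier results known.

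Many glycolytic genes have processed copies elsewhere in the genome that can take up or give reads. Genes named as a member symbol followed by P and a number were found for 16 members, 147 copies in all. Of the 51 copies that were tested, 43 were below 0 and 0 passed the threshold (limma), beside 48.9% and 0.157% of all tested genes. Of these copies 16 were of GAPDH, 15 of them below 0. Since copies can hold reads of their members, they are no separate observations. The 62 GAPDH copies held 35.8% ± 0.468 of the reads of GAPDH and its copies in DMSO and 35.7% ± 0.404 in GW3965 (SD, n = 5 each). For TPI1 the share was 28.1% ± 0.210 in DMSO and 27.7% ± 0.529 in GW3965, and for BNIP3, with 39 copies, 23.7% ± 2.36 and 24.9% ± 2.15. These levels are therefore uncertain where counting could split reads. The shares differed between groups by less than their spread for GAPDH and BNIP3, but by more than either SD for PGAM1, at 7.69% ± 0.188 in DMSO and 8.22% ± 0.351 in GW3965, and for LDHA, at 5.85% ± 0.111 and 6.07% ± 0.151. The same held for the untested SLC2A3, at 87.3% ± 2.24 and 81.0% ± 4.35, and for PKM, HIF1A and SLC16A1, whose copies held under 1% of the reads in both groups on average. For SLC2A3 the copy SLC2A3P4 had 495 reads over the 10 libraries against 96 of the gene itself. Stretches shared with genes on the opposite strand were over 10% of the exon bases for 5 members, GAPDH, ALDOA, ALDOC, CA9 and ANKRD37, and the strand setting of the counting is not given in the sources used here.

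**Figure D5:**
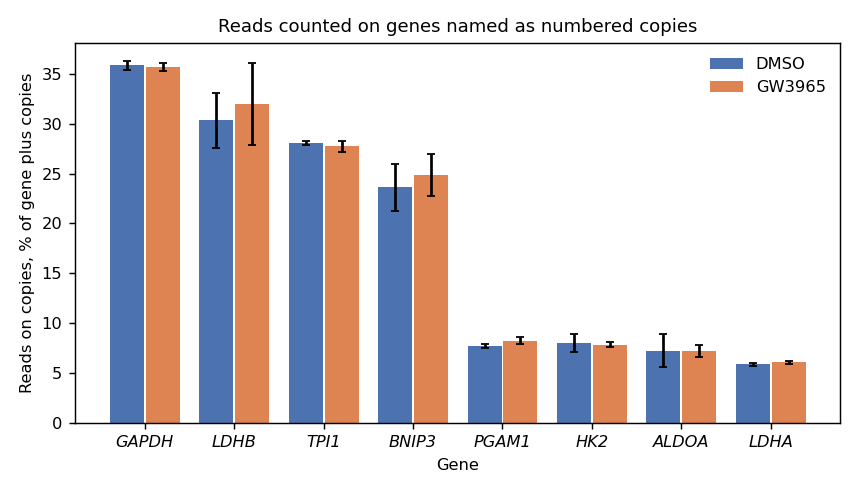
Share of reads on copies, in percent of the reads of a member and its copies, for 8 members in which reads on copies reached the highest shares among the tested genes. Bars are group means from 0 and whiskers the SD, n = 5 libraries per group. The GAPDH share was 35.8% in DMSO and 35.7% in GW3965.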

How the data were processed

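RNA of PC3 cells was sequenced from stranded libraries, made per the protocol from total RNA depleted of ribosomal RNA, although the labels name polyA RNA. Per the submitters' processing notes, reads were handled with bcl2fastq 2.20.0.422, cutadapt, HISAT2 2.1.0 on hg38, HTSeq 0.11.2 and DESeq2 1.22.2, whereas the study's methods name a mouse genome. All gene identifiers are human. The annotation release and the strand setting of the counting are not given in the sources used here. The authors deposited 1 table of RPKM values per gene and library, and no read counts were used as deposited. Library factors in the RPKM values matched median-of-ratios size factors, so that scaling follows the typical gene and not the read total. Whole reads were recovered from the values (100% of values above 0 came out whole within 1e-05 reads, with 989 genes needing the GENCODE 29 length) and served for depth and for voom.

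Genes averaging 0.5 RPKM or more were analysed as log2(RPKM + 0.1) with limma 3.58.1 in R 4.3.3 (lmFit, eBayes with trend, two-sided, Benjamini-Hochberg over 20402 genes, threshold 0.05) over all 10 libraries. Fold changes on this scale understate changes of low genes. Exact permutation tests ran over every relabelling of the libraries, the smallest p being 0.00794. Named with full values are, by rule, the most abundant member of each role, members with unadjusted p under 0.05 and those at the ends of the range or without overlap, and, of the further lists, the genes at either end. Members, lists and the 3 libraries left out were chosen with earlier results of these data known. Alternatives were other pseudocounts, filters, scalings and limma options, voom, a replicate block and leaving out libraries. Motifs were counted in RefSeq windows of GRCh38.p14. SLC2A3, CA9, EGLN3 and ANKRD37 fell below the filter, and the second table row with the ALDOA symbol, ENSG00000285043, was not used.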

Additional observations from a re-analysis of the deposited data

Results flagged for a closer look

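In 4 of the 70 groups of 5 libraries examined, 1 library lay apart from the other 4 by more than Dixon's limit of 0.71 for the gap as a share of the range, where chance alone gives 3.5. PGK1, the phosphoglycerate kinase, read 183 RPKM in DMSO 4 against 147 to 149 in the other DMSO libraries (0.930). NDRG1 read 12.2 RPKM in GW3965 5 against 13.9 to 14.1 (0.883). PFKFB4 read 10.3 RPKM in GW3965 5 against 8.87 to 9.24 (0.729), the value that made its groups overlap. P4HA1 read 55.4 RPKM in DMSO 3 against 60.2 to 62.2 (0.717).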

How the results depend on the processing

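The count of 0 members past the threshold became 1 with quantile normalization (BNIP3) and 6 with the first principal component as a covariate, and was 0 under each other alternative, every single library left out included. The median log2 fold change of the members stayed below 0 throughout and ranged from -0.14 to -0.06 with 1 library left out. Of all tested genes 32 passed, against 21 with no filter, 20 without a variance trend, 56 with library weights, 63 with voom, 275 with the covariate, 18 without GW3965 1, GW3965 2 and DMSO 1, and 17 to 38 with 1 library left out, with 17 without GW3965 2 or GW3965 4, 18 without DMSO 3 and 19 without GW3965 3. The cause was not tested. Libraries with the same number did not all deviate together (r from -0.138 to 0.160, and only number 4 matched its own number best), so the number was not taken as a pairing, and the replicate block gave 16 genes and 0 members.

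Of 944 single-gene values under the 22 alternatives, 912 kept direction and side, 25 in 7 genes turned and 7 passed only there. Quantile normalization gave PKM 0.011 and HIF1A -0.012. Library weights gave ALDOA 0.063, PKM 0.054, SLC16A1 0.0020 and HIF1A -0.069. The covariate gave PKM 0.0086 and HIF1A -0.020. Without the 3 libraries ALDOA was 0.12, PKM 0.035, SLC16A1 0.033 and P4HA1 0.026. With 1 library left out ALDOA ranged from -0.15 to 0.028, ALDOC from -0.084 to 0.012, EPAS1 from -0.16 to 0.024, HIF1A from -0.10 to 0.087, PKM from -0.056 to 0.042 and SLC16A1 from -0.099 to 0.0032. All of these genes had estimates near 0 to begin with. Depth limited ADM, ENO3 and the 4 untested members most.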

Other observations

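Among the further genes of the pathway, 3 had groups that did not overlap, and they are named here after their values were seen. SLC2A6, a lysosomal hexose transporter, averaged 4.09 ± 0.177 RPKM in DMSO and 4.73 ± 0.246 in GW3965 (SD, n = 5 each), a log2 fold change of 0.20 (adjusted p = 0.338, limma). KDM4B, a HIF-inducible histone demethylase, averaged 7.33 ± 0.295 RPKM in DMSO and 6.65 ± 0.150 in GW3965, a log2 fold change of -0.14 (adjusted p = 0.551, limma). PPFIA4, a liprin, averaged 0.696 ± 0.0498 RPKM in DMSO and 0.553 ± 0.0327 in GW3965, a log2 fold change of -0.29 (adjusted p = 0.734, limma). Groups without overlap were found for 1.35% of all tested genes in the higher and 0.49% in the lower direction.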
